A study of Mus musculus with 28 samples.

Results

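Magnesium enters and leaves kidney epithelial cells through a small set of membrane proteins, and the 10 genes described here encode the CNNM family (Cnnm1, Cnnm2, Cnnm3 and Cnnm4), the channel-kinases Trpm6 and Trpm7, the solute carriers Slc41a1 and Slc41a3, the mitochondrial channel Mrs2, and Magt1. They were 10 of the 45706 genes listed in the deposited tables, matched by Ensembl gene identifier to these symbols. The members were chosen by the level of Cnnm1 in WT5 and polyclonal wild-type cells, around which related genes were listed, so the comparison of these 2 groups is given below as a description. RNA was sequenced from mIMCD-3 cells, mouse kidney epithelial cells that were established out of the inner medullary collecting duct of an animal transgenic for SV40, in 28 libraries forming 7 groups of 4. The groups were the unmanipulated polyclonal wild-type (WT) line, its monoclonal line WT5 grown from 1 sorted cell, and 5 subclones (1 to 5) each grown from 1 cell sorted out of WT5. No group carried a targeted edit or a treatment, and each monoclonal group stands for 1 founder cell only. The polyclonal libraries were read as 50-base single ends and the WT5 libraries as 150-base paired ends, at different times, so line and sequencing run cannot be told apart in that comparison. The subclones were deposited in a table of their own, so for a shift away from WT5 that the subclones share, clone and table cannot be told apart.

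CNNM proteins are membrane proteins that regulate cellular magnesium, are bound by the phosphatases of regenerating liver (Ptp4a genes), and include CNNM2, mutated in inherited magnesium wasting, and CNNM4, mutated in Jalili syndrome. TRPM6 and TRPM7 are cation channels fused to a kinase. TRPM7 is found in most cells, whereas TRPM6 is the magnesium channel of the distal convoluted tubule and colon, where the final amount of magnesium lost in the urine or stool is set. SLC41A1 is a sodium-dependent magnesium extruder, MRS2 carries magnesium into the mitochondrial matrix, and MAGT1 is a subunit of the oligosaccharyltransferase that has also been linked to magnesium uptake.

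The libraries were first checked against the label. Markers of simple epithelium (Krt8, Krt18, Krt7, Cdh1, Epcam and Cdh16) had a mean of at least 1 TPM in every group, 6 of 6 genes, with summed levels from 1707 to 2942 TPM over the 28 libraries. TPM, transcripts per 1000000, is a length-corrected share of a library, so it allows levels of different genes to be compared but holds no read depth. Of 11 collecting duct principal cell markers, 6 reached 1 TPM in polyclonal cells and 3 in WT5 and in each subclone. This list summed to 97.0 to 110 TPM in polyclonal cells, 68.7 to 73.2 TPM in WT5 and 67.0 to 88.3 TPM in the subclones. Aqp2, the vasopressin-regulated water channel that defines this cell type, was listed at 0 in all 28 libraries. The 4 distal convoluted tubule markers (Slc12a3, Pvalb, Trpv5 and Calb1) summed to at most 0.03 TPM in any library. Thick ascending limb markers summed to 0.03 to 0.14 TPM in polyclonal cells, 3.22 to 3.58 in WT5 and 1.84 to 13.3 in the subclones. Proximal tubule markers summed to 1.45 to 1.62, 3.57 to 4.68 and 4.53 to 10.3 TPM in the same order. Intercalated cell markers summed to at most 1.85 TPM in any library. Fibroblast markers summed to at most 2.11 TPM and endothelial markers to at most 0.29 TPM, with Lum, Cdh5, Kdr and Emcn among the genes near or at 0. The leukocyte list summed to 12.2 to 13.8 TPM in polyclonal cells and 38.7 to 44.9 TPM in WT5, mostly Csf1r (10.6 and 38.8 TPM), with Cd68 at 2.28 ± 0.218 and 2.78 ± 0.387 TPM, Cd3e at 0 and Ptprc at 0.03 TPM in both. Among the subclones Cd68 was highest in subclone 4 (3.73 TPM against 2.14 in the others, adjusted p = 0.00114 in limma), where the whole list summed to 42.2 to 45.5 TPM, within the 28.4 to 55.6 TPM of the other subclones. The part of Cd68 in the subclone 4 differences was not tested. In a limma F test over the subclone libraries, Cd68 had an adjusted p of 0.00529, Csf1r 0.0145 and Ptprc 0.308. Markers of other lists also had an adjusted p below 0.01 there, such as Scnn1g (2.92e-11), Cdh1 (3.28e-05), Krt8 (0.00071) and Hoxb7 (0.000725). Others did not, such as Krt18 (0.0138), Tfcp2l1 (0.0249), Krt7 (0.255) and Scnn1a (0.688). Between 16270 and 19272 genes were above 0 per library, with the polyclonal libraries highest. Replicates correlated at 0.986 to 0.993 within groups, and subclone 3 replicate 2 and subclone 5 replicate 1 had the lowest mean correlation with their own replicates (0.988 and 0.989).

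All 10 genes were above 0 in all 28 libraries, so none was lost to the filter on low values. The 4 genes that differed among the subclones lie on chromosomes 19 and 6 in GRCm38. Cnnm1 (ENSMUSG00000025189) spans chr19:43440436-43497210, Cnnm2 (ENSMUSG00000064105) chr19:46761596-46880192, Trpm6 (ENSMUSG00000024727) chr19:18749983-18892511 and Slc41a3 (ENSMUSG00000030089) chr6:90604725-90646412, all on the plus strand. The 250 bases before each RefSeq transcription start are shown for these 4 genes (RefSeq, GRCm38.p6, plus strand, 5′ to 3′), with every CG dinucleotide in capitals, so that the start of Cnnm1, near 0 in 1 group and above 5 TPM in the other 6, can be set beside those of the other 3. The windows are chr19:43440163-43440412 for Cnnm1, chr19:46761359-46761608 for Cnnm2, chr19:18749480-18749729 for Trpm6 and chr6:90618996-90619245 for Slc41a3, which lies inside the gene as annotated by GENCODE.
Cnnm1: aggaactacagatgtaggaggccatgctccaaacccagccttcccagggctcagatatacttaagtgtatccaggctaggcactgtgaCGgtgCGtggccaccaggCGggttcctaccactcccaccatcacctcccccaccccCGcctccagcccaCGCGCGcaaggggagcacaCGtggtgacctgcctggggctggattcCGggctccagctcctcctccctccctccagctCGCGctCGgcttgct
Cnnm2: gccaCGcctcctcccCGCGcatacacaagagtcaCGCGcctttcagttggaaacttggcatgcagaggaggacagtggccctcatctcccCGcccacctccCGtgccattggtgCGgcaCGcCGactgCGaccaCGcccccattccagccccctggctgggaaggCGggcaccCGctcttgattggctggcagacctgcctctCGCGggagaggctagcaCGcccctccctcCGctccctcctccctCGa
Trpm6: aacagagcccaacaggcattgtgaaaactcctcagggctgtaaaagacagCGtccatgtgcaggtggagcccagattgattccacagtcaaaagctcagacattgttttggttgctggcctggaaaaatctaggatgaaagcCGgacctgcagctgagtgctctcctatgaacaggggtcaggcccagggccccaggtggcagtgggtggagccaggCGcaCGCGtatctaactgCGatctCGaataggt
Slc41a3: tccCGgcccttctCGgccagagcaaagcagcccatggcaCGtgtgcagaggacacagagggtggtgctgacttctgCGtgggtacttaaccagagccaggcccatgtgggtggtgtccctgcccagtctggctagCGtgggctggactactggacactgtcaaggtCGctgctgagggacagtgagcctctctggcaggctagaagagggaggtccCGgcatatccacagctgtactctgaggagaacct
The Cnnm1 window held 12 CG, the Cnnm2 window 19, and the Trpm6 and Slc41a3 windows 7 each. CG reads the same on both strands, and neighbouring pairs such as CGCG count as 2. Among the 32851 promoters of the RefSeq table the median was 6 CG and 92.1% held at least 1. As many CG as Cnnm1 or fewer were found in 68.5% of them, and as many as Trpm6 or fewer in 57.0%. Entries were found for 9 of the 10 genes, and the other windows held 16 (Slc41a1), 21 (Magt1), 26 (Trpm7), 29 (Cnnm3) and 34 (Cnnm4).

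Cnnm1 transcripts were almost absent from the polyclonal line and present in every monoclonal library. Each of the 4 polyclonal libraries listed Cnnm1 at 0.01 TPM, the smallest value above 0 in the tables. In WT5 it stood at 8.72, 8.97, 9.54 and 8.40 TPM in replicates 1 to 4, a mean of 8.91 ± 0.482 (SD, n = 4). No fold change is drawn from 0.01 TPM, since rounding alone sets that value. In these bulk samples, fewer cells with the transcript and less RNA per cell cannot be told apart. Cnnm1 overlapped WT5 in subclones 1 (6.78 to 9.72 TPM), 3 (6.64 to 9.96) and 5 (5.63 to 8.87). Subclone 2, at 6.95 to 7.52 TPM, lay below every WT5 library. Subclone 4 stood apart from the other groups at 12.99, 13.67, 12.70 and 13.77 TPM, and its range overlapped none of theirs. Ordered by mean, subclone 4 came first, followed by WT5 and subclones 1, 3, 5 and 2, whose neighbours in the order all overlapped, and the polyclonal line came last.

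**Figure D1:**
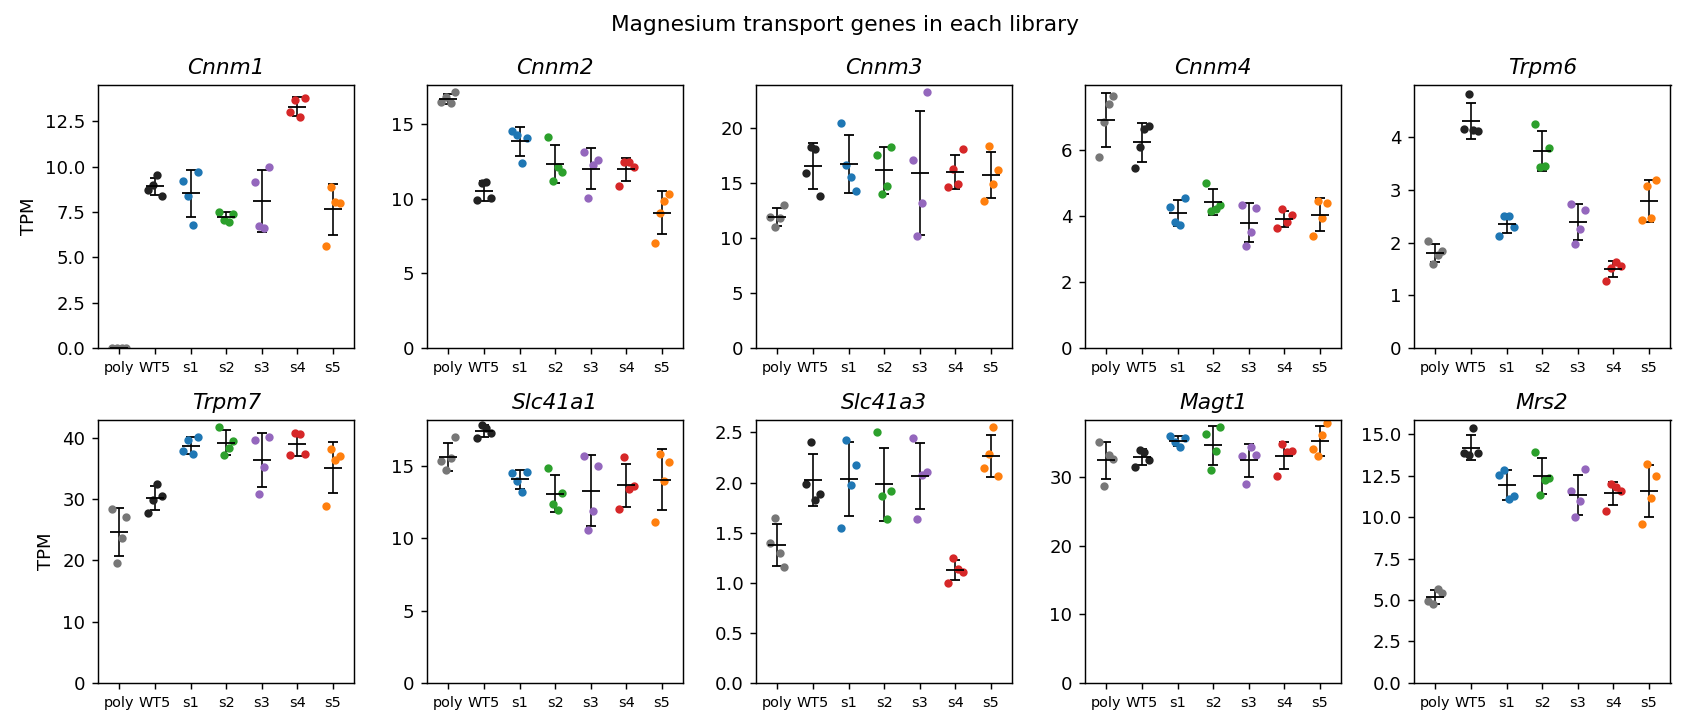
TPM (linear axis from 0) of the 10 magnesium transport genes in each of the 28 libraries. Points are libraries, horizontal marks the mean and bars the SD of 4 libraries, in polyclonal WT (poly), WT5 and subclones 1 to 5 (s1 to s5). Cnnm1 lies at 0.01 TPM in the 4 polyclonal libraries and at 5.63 to 13.77 TPM in the other 24.

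The genes beside Cnnm1 that reached 1 TPM, apart from 1 pseudogene, were well above 0 in both groups. Of 18 annotated genes within 250 kb, 9 were listed in the tables and 5 reached a mean of 1 TPM in WT5 or polyclonal cells. Got1, the cytosolic aspartate aminotransferase, ends 2.5 kb away on the opposite strand and had 64.4 ± 4.05 TPM in polyclonal cells and 81.4 ± 1.08 in WT5. Slc25a28, a mitochondrial iron carrier, had 24.9 ± 2.34 and 37.7 ± 0.834 TPM. Entpd7 had 4.61 ± 0.227 and 5.48 ± 0.414 TPM, and Cox15, needed for heme A synthesis, had 33.0 ± 2.99 and 28.3 ± 1.47 TPM. The pseudogene Gm6776 had 1.20 ± 0.453 and 0.0925 ± 0.0763 TPM. The homeobox gene Nkx2-3 had 0.673 ± 0.118 TPM in polyclonal cells and 0 in WT5, and Hpse2, Gm20467 and Gm22646 had means of at most 0.238 TPM in both groups. Among the 92 protein-coding genes with a mean of at least 1 TPM within 5 Mb of Cnnm1, the median log2 difference between WT5 and polyclonal cells was -0.05 relative to the median of all genes. The antisense genes Gm47936 and Gm47938 overlap Cnnm1 and are not listed in the tables used here, so reads from them cannot be told apart without knowing strand. Only 1.50% of the 50-base stretches of the longest Cnnm1 transcript occur in another gene, all of them in Gm47938.

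The other members differed between WT5 and polyclonal cells by less than 3-fold. Trpm6 had 2.02, 1.60, 1.76 and 1.84 TPM in polyclonal cells and 4.15, 4.81, 4.14 and 4.11 in WT5, a ratio of means of 2.38. Mrs2 had 4.91, 4.73, 5.66 and 5.44 TPM in polyclonal cells and 13.85, 13.73, 15.35 and 13.86 in WT5, a ratio of 2.74. The WT5 libraries lay above every polyclonal library for both genes. Cnnm2 ran the other way, with 16.51, 16.81, 16.38 and 17.12 TPM in polyclonal cells and 9.91, 11.05, 11.09 and 10.02 in WT5, a ratio of 0.630. Cnnm3 stood at 11.9 ± 0.819 and 16.5 ± 2.10 TPM and Slc41a3 at 1.38 ± 0.207 and 2.03 ± 0.257 TPM in polyclonal cells and WT5, again without overlap. Cnnm4 (6.93 ± 0.824 and 6.24 ± 0.592 TPM), Trpm7 (24.7 ± 3.91 and 30.1 ± 1.94), Slc41a1 (15.7 ± 0.961 and 17.4 ± 0.409) and Magt1 (32.4 ± 2.67 and 32.9 ± 1.14) overlapped between the groups. Mrs2 overlaps Gpld1, and 34.6% of the 50-base stretches of its longest transcript also occur in Gpld1, which had 3.73 ± 1.12 TPM in polyclonal cells and 3.35 ± 0.397 in WT5.

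For counts across genes, log2 TPM was converted to z-scores, a step named in the study's methods and applied here within each library, and compared with limma, where a gene was called at a Benjamini-Hochberg adjusted p below 0.01. A z-score difference of 1 is a ratio of about 8.56 here. Of the 10 members, 5 were past this threshold between WT5 and polyclonal cells, where 65.5% of the 13723 genes tested were past it. Cnnm1, Trpm6 and Mrs2 made 3 higher (34.5% of genes) and Cnnm2 and Cnnm4 made 2 lower (30.9% of genes). The levels of Cnnm1 in these same groups chose the list, so these counts describe the members and test nothing. Leaving out 1 library moved Cnnm4 back over the threshold in 7 of 8 settings (each WT5 replicate and polyclonal replicates 2, 3 and 4), as did log2 TPM without z-scores. The unequal-variance test named in the study's methods and a pseudocount of 0.1 for genes above 0 in any library did the same. With that pseudocount, and on log2 TPM without z-scores, Cnnm3 and Slc41a3 were past the threshold as higher. Leaving out 1 library also brought Magt1 past it without polyclonal replicate 2 and Cnnm3 without WT5 replicate 4. The ranges of 6 members did not overlap, against 72.3% of all genes. With a z-score difference above 1 in size also asked for, the 1 member past was Cnnm1, whose levels chose the list, so nothing is read from this count beside the 5.43% of all genes. The median z-score difference was 0.053 over the members and 0.0099 over all genes. Before z-scoring, all genes had a median log2 difference of 0.24, and relative to that shift Slc41a1 (log2 difference 0.16, or -0.09 after the shift) and Magt1 (0.03, or -0.22) change sign with the scaling.

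The make-up of the CNNM transcripts differed from group to group. Their sum was 35.6 ± 1.58 TPM in polyclonal cells, 42.2 ± 3.17 in WT5 and between 36.5 ± 4.94 (subclone 5) and 45.2 ± 2.63 (subclone 4) in the subclones. Cnnm2 made up 47.0 ± 1.58% of the sum in polyclonal cells and 24.9 ± 0.536% in WT5. Cnnm1 made up 0.028 ± 0.001% in polyclonal cells, 21.1 ± 0.707% in WT5 and 29.4 ± 0.956% in subclone 4. Cnnm3 held 33.5 ± 1.37% in polyclonal cells and 39.1 ± 2.49% in WT5, and Cnnm4 held 19.4 ± 1.73% and 14.8 ± 1.70%. Cnnm3 and Cnnm4 are neighbours on chromosome 1, with Cnnm4 at chr1:36471620-36508764 and Cnnm3 at chr1:36511867-36528237.

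**Figure D2:**
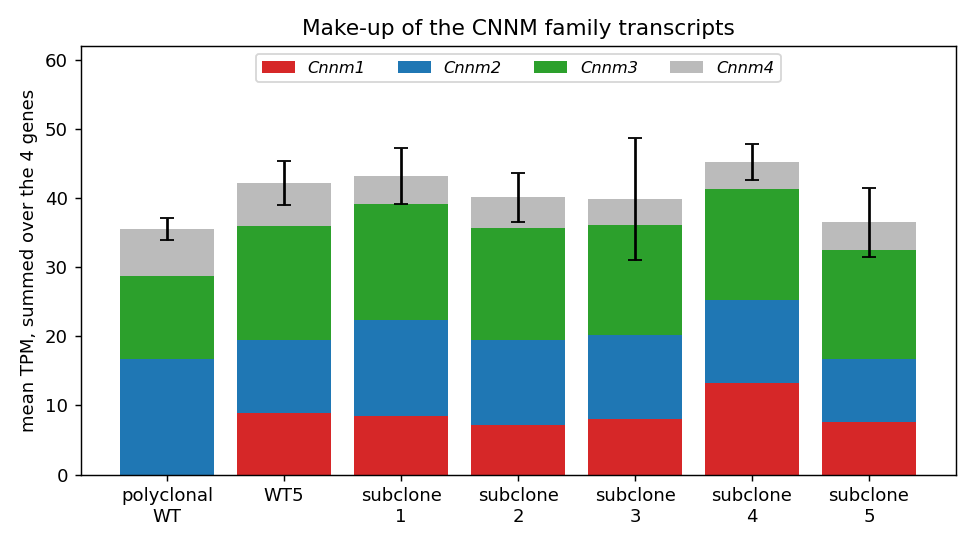
Mean TPM of Cnnm1, Cnnm2, Cnnm3 and Cnnm4 stacked by group (linear axis from 0), with bars for the SD of the summed TPM over 4 libraries. The sum stays between 35.6 and 45.2 TPM, while the Cnnm1 part goes from 0.01 TPM in polyclonal cells to 13.3 TPM in subclone 4.

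Trpm6, the epithelial channel, and its widely expressed relative Trpm7 were set side by side as a ratio. As a share of the Trpm7 level, Trpm6 stood at 7.38 ± 0.585% in polyclonal cells, 14.3 ± 1.50% in WT5, and 6.10 ± 0.528%, 9.50 ± 0.485%, 6.55 ± 0.230%, 3.84 ± 0.327% and 7.95 ± 0.796% in subclones 1 to 5. Trpm6 and Trpm7 shared no 50-base stretch with any other gene.

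The question put to the 5 subclones was how far cells grown from the same clone differ from each other. This comparison used none of the WT5 and polyclonal values the list was drawn from. The members and tests were still chosen with earlier results of these data known. In a limma F test over the 20 subclone libraries, 4 of the 10 members were called, Trpm6 (adjusted p = 1.44e-08), Slc41a3 (1.64e-05), Cnnm1 (1.8e-05) and Cnnm2 (0.00015), where 24.6% of the 14031 genes tested were called. Cnnm4 (0.0219), Trpm7 (0.196), Magt1 (0.224), Mrs2 (0.33), Slc41a1 (0.627) and Cnnm3 (0.988) were not past the threshold. Each of the 20 settings that left out 1 library gave 4 calls. No member reached a z-score difference of 1, since the largest difference between any 2 subclones was 0.45, for Trpm6, and that for Trpm7 was 0.042. The labels do not say that the 4 libraries of a subclone came from separate cultures, so the p-values measure the spread between these libraries, which may be technical.

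Subclone 4 differed in 3 members, for which its 4 libraries overlapped none of the other 16. Cnnm1 averaged 13.3 TPM in subclone 4 and 7.88 TPM over the other 4 subclones, a ratio of 1.69 that corresponds to 0.245 ± 0.0261 (SE) in z-score (limma, adjusted p = 1.49e-06). Trpm6 stood at 1.28, 1.51, 1.63 and 1.56 TPM in subclone 4 against a mean of 2.82 TPM, a ratio of 0.531 or -0.310 ± 0.0212 (SE) in z-score (adjusted p = 7.22e-09). Slc41a3 stood at 1.00, 1.25, 1.14 and 1.11 TPM against a mean of 2.09 TPM, a ratio of 0.539 or -0.310 ± 0.0327 (SE) in z-score (adjusted p = 1.3e-06). These are 3 of 10 members called where 18.4% of all genes were, and 3 of 10 without overlap where 6.88% of all genes were. In pairwise tests of subclone 4 against each other subclone, the adjusted p of Cnnm1 ran from 6.54e-06 to 0.000151, out of 10 pairs of subclones compared per gene. The 3 differences remained past the threshold under all 29 alternative settings each.

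Slc41a3 differed in subclone 4 together with its neighbours on the chromosome. Of the protein-coding genes with a mean of at least 1 TPM, 56 lie within 5 Mb of Slc41a3, and their median log2 difference between subclone 4 and the other subclones was -0.54, against -0.88 for Slc41a3 itself. The median of these neighbours, relative to the mean of the 20 libraries, lay between -0.45 and -0.39 in the 4 libraries of subclone 4 and between 0.04 and 0.16 in the other 16. From 70 to 130 Mb on chromosome 6, 256 of 262 such genes were lower in subclone 4, with a median of -0.55. From 130 to 150 Mb the median over 58 genes was 0.03. With the median of the genes within 5 Mb taken out of every gene in every library, a setting added after the data were seen, the Slc41a3 difference was -0.133 ± 0.0332 (SE) in z-score (adjusted p = 0.00744), and the F test among the subclones no longer called Slc41a3 (adjusted p = 0.0214), which left 3 members called. The neighbours of Cnnm1 (93 genes, median -0.02) and Trpm6 (19 genes, median -0.01) stood near 0 in the same comparison, and in this setting their differences were 0.252 (adjusted p = 4.15e-07) and -0.291 (adjusted p = 8.17e-08).

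**Figure D3:**
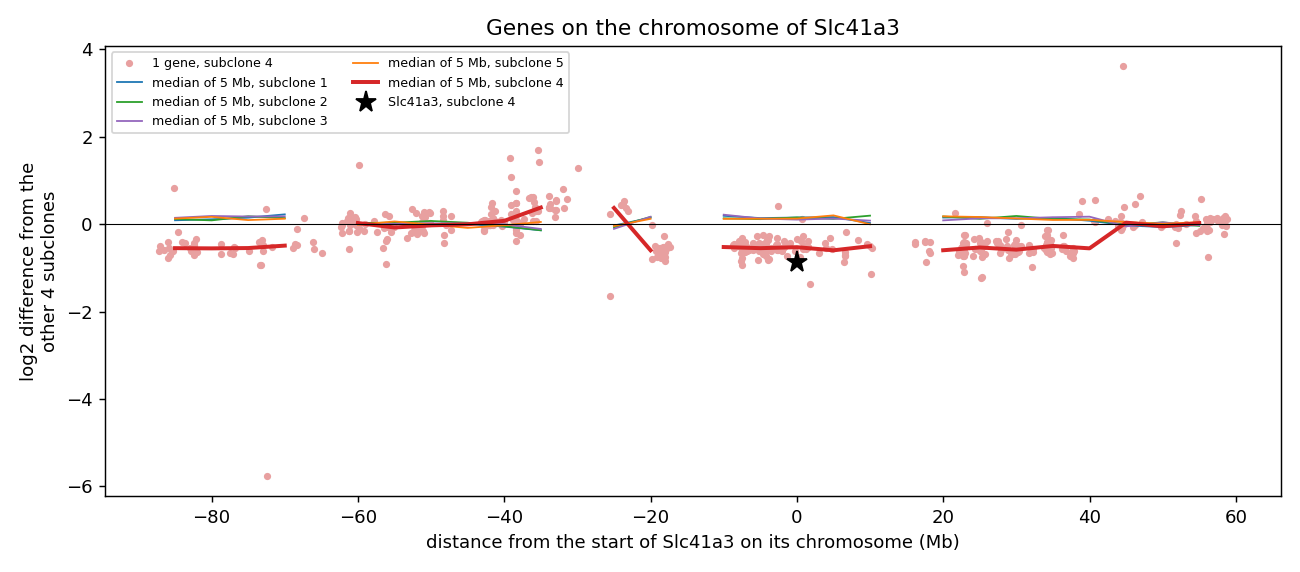
Log2 difference between subclone 4 and the mean of the other 4 subclones (vertical axis, relative to the median of all genes) for each protein-coding gene with a mean of at least 1 TPM, by distance in Mb from the start of Slc41a3. Lines are medians over 5 Mb windows of at least 5 genes for each subclone against the other 4, and the star is Slc41a3. Genes from about 20 Mb before to 38 Mb after Slc41a3 lie near -0.55 in subclone 4, and the star lies below most of them.

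The remaining subclones differed from the others in 0 to 3 members. In subclone 2, Trpm6 stood at 4.24, 3.44, 3.45 and 3.79 TPM, above all 16 libraries of the other subclones (1.08% of genes had no overlap here). The mean of the others was 2.26 TPM (ratio 1.65, adjusted p = 3.75e-07), and Trpm6 was the 1 member called where 5.95% of genes were. Cnnm1 in subclone 2 averaged 7.24 TPM against 9.39 (adjusted p = 0.0117), and passed the threshold when subclone 1 replicate 3 (0.0039), subclone 3 replicate 3 (0.00531) or subclone 5 replicate 1 (0.004) was left out. It also passed with the median of the genes within 5 Mb taken out (0.00203), among genes with a mean of at least 1 TPM (0.00692), and without both subclone 3 replicate 2 and subclone 5 replicate 1 (0.00466). In subclone 1, Cnnm2 was the 1 member called (13.8 against 11.3 TPM, adjusted p = 0.00521, 4.36% of genes called), and it was lost without subclone 1 replicate 1 (0.0358), replicate 2 (0.0264) or replicate 4 (0.0185), on log2 TPM without z-scores (0.0496), with the replicate block (0.014) and with a pseudocount of 0.1 for genes above 0 in any library (0.0157). In subclone 5, Cnnm2 was lower at 7.06, 9.04, 9.83 and 10.35 TPM against a mean of 12.5 (ratio 0.724, adjusted p = 4e-05), with an adjusted p of 4.09e-05 to 0.000432 when 1 library was left out. Slc41a3 (2.26 TPM, 1.26 times the mean of the others, adjusted p = 0.004) and Trpm6 (2.79 against 2.49 TPM, adjusted p = 0.0037) were called higher in subclone 5, which makes 3 of 10 where 14.5% of genes were called. The Slc41a3 call was lost without subclone 5 replicate 1 (0.0185) or replicate 3 (0.0261), and Trpm6 without subclone 5 replicate 1 (0.0103), 2 (0.0166) or 4 (0.0257). Taking out the median of the genes within 5 Mb also ended both calls, with Slc41a3 going from 0.143 to 0.109 in z-score (adjusted p = 0.0264) and Trpm6 from 0.0935 to 0.0605 (adjusted p = 0.0685). On log2 TPM without z-scores the adjusted p were 0.0299 and 0.104. The unequal-variance test named in the study's methods called 0 members in subclones 1 and 5, where Cnnm2 had adjusted p of 0.0224 and 0.0513, and the same calls as limma in number in subclones 2 and 4. In subclone 3 limma called 0 members, where 4.85% of genes were called. The smallest adjusted p there was that of Cnnm4, 0.0964, the 1 member with an unadjusted p below 0.05, and the unequal-variance test also called 0.

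**Figure D4:**
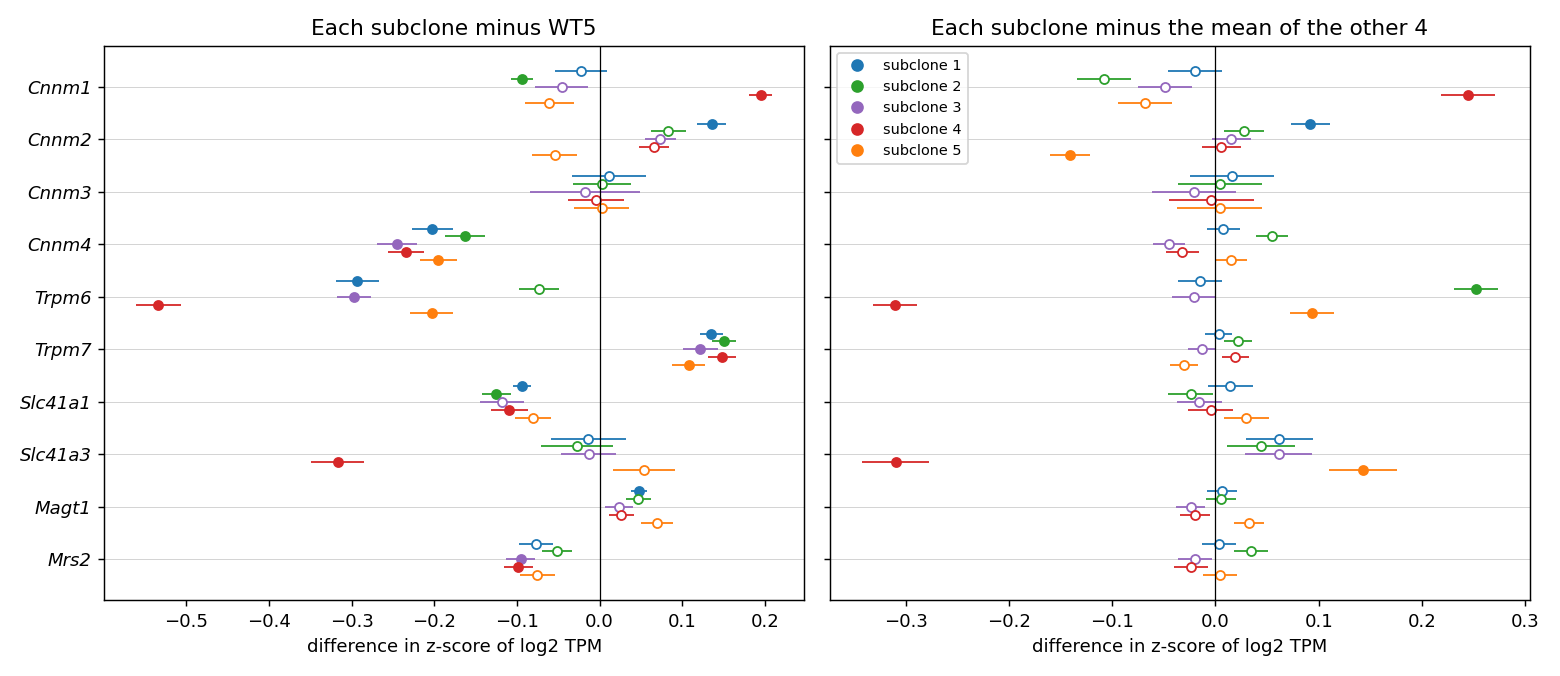
Difference in z-score of log2 TPM for the 10 members, each subclone minus WT5 (left) and each subclone minus the mean of the other 4 (right). Points are differences, bars standard errors, and filled points passed an adjusted p below 0.01 in limma. Cnnm1 on the left is a description only, since its level in WT5 chose the list. On the right, subclone 4 reaches 0.245 for Cnnm1 and -0.310 for Trpm6 and Slc41a3, while Cnnm3, Cnnm4, Trpm7, Slc41a1, Magt1 and Mrs2 have no filled point.

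Set against WT5, the line they came from, the subclones had less Cnnm4 and more Trpm7. These 5 comparisons share the 4 WT5 libraries and cross from one table to the other. Cnnm4 stood at 5.46, 6.11, 6.66 and 6.74 TPM in WT5 and between 3.10 and 5.01 TPM in the 20 subclone libraries, all below WT5, as were 12.3% of all genes. Its subclone means were 4.10, 4.44, 3.80, 3.93 and 4.05 TPM in subclones 1 to 5, with adjusted p of 0.000829, 0.00173, 0.000327, 0.00012 and 0.000658 in limma. Trpm7 had 27.71, 29.83, 32.41 and 30.49 TPM in WT5 and means of 38.7, 39.2, 36.4, 39.0 and 35.1 TPM in the subclones (adjusted p = 0.00042, 0.000276, 0.00397, 0.000303 and 0.00523). The Trpm7 libraries of subclones 3 and 5 overlapped WT5, and leaving out 1 library lost the call in 6 of 8 settings for each (WT5 replicates 1, 2 and 4, subclone 3 replicates 1, 3 and 4, and subclone 5 replicates 2, 3 and 4), with adjusted p of up to 0.0149 and 0.0189. On log2 TPM without z-scores neither of the 2 was called (adjusted p = 0.0716 and 0.135). Over all genes, 7.05% were called in the same direction against WT5 in each subclone.

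Trpm6 was lower than in WT5 in subclones 1, 3, 4 and 5, at 0.548, 0.555, 0.347 and 0.647 of the WT5 mean (adjusted p = 0.000211, 6.92e-05, 9.15e-06 and 0.00104), and stood at 0.867 of it in subclone 2 (adjusted p = 0.0405). Slc41a1, with 16.92 to 17.85 TPM in WT5, had 10.60 to 15.82 TPM in the subclones, all 20 libraries below WT5. It was called in subclones 1 (adjusted p = 0.000556), 2 (0.00145) and 4 (0.00516), and in subclone 4 the call was lost in 6 of 8 settings that left out 1 library (any WT5 replicate, or subclone 4 replicates 3 and 4), with adjusted p of up to 0.0162. The unequal-variance test called Slc41a1 in neither subclone 2 (0.0215) nor subclone 4 (0.0409). With the replicate block it was called in none of subclones 1, 2 and 4 (0.0135, 0.0136 and 0.014). Mrs2 had 13.73 to 15.35 TPM in WT5 and 9.59 to 13.91 TPM in the subclones, and was called lower in subclones 3 (adjusted p = 0.00491, lost without any 1 WT5 replicate or subclone 3 replicates 1 or 3, up to 0.0176) and 4 (0.00252). Gpld1, with which Mrs2 shares sequence, had 3.35 TPM in WT5 and means of 1.73 to 2.17 TPM in the subclones, so the part of these reads in the Mrs2 difference was not tested. Slc41a3 was called lower in subclone 4 (1.13 against 2.03 TPM, adjusted p = 0.000158), Cnnm2 higher in subclone 1 (13.8 against 10.5 TPM, adjusted p = 0.000995) and Magt1 higher in subclone 1 (35.3 against 32.9 TPM, adjusted p = 0.00713). Relative to the median of all genes, the log2 difference of Magt1 was 0.14, and the 28 genes within 5 Mb of it had a median of 0.13. For Slc41a3 these values were -0.78 and -0.47 (56 genes), and for Cnnm2 0.43 and -0.07 (79 genes). The part of the neighbours in these calls was not tested. The Magt1 call was lost in all 8 settings that left out 1 library, with adjusted p from 0.0126 to 0.0253. Leaving out 1 library also brought 3 members past the threshold, Cnnm2 in subclone 4 without its replicate 1 (0.00568), Slc41a1 in subclone 3 without its replicate 1 (0.00511) and Magt1 in subclone 5 without its replicate 2 (0.00545). Cnnm1 stood at 0.957, 0.812, 0.910, 1.49 and 0.857 of the WT5 mean in subclones 1 to 5, and Cnnm3 lay between 0.949 and 1.01. Cnnm1 was past the threshold in subclones 2 (lower) and 4 (higher). Its level in WT5 chose the list, so this describes Cnnm1 and tests nothing. In all, 6, 4, 4, 7 and 3 of the 10 members were past the threshold in subclones 1 to 5, where 26.3%, 26%, 19.5%, 37.3% and 21.9% of the 13860 genes tested were. The counts of subclones 2 and 4 include Cnnm1. No member also passed a z-score difference of 1, where 0.152%, 0.144%, 0.173%, 0.202% and 0.173% of genes did. The member medians were -0.018, -0.039, -0.032, -0.051 and -0.058 in z-score, and those of all genes lay between -0.0031 and 0.0025.

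The transcripts of 4 proteins that bind the CNNM family formed 1 of 5 lists of other magnesium genes. Ptp4a3, a phosphatase that binds CNNM proteins, stood at 0.118 ± 0.0427 TPM in polyclonal cells and 9.68 ± 0.205 in WT5 (1.99 ± 0.0668 SE in z-score, adjusted p = 1.55e-07). Its relative Ptp4a1 fell from 141 ± 6.93 to 76.1 ± 1.34 TPM (adjusted p = 1.32e-07), and Arl15, a small GTPase that binds CNNM proteins, fell from 41.2 ± 1.23 to 10.1 ± 0.502 TPM (adjusted p = 1.07e-08). Ptp4a2 had 133 ± 6.02 and 154 ± 5.18 TPM (adjusted p = 0.792). In the subclones Ptp4a3 was lower than in WT5, with means of 5.77, 6.43, 6.69, 7.07 and 7.76 TPM (adjusted p from 1.74e-05 to 0.00361), and it differed among the subclones (adjusted p = 0.000191). Ptp4a1 was higher than in WT5, with means of 88.5 to 101 TPM (adjusted p from 0.00015 to 0.00311). The annotation holds a second entry under the symbol Ptp4a1 that shares 92.5% of its 50-base stretches, so its level is uncertain.

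Over all 5 lists, 31 of 45 genes could be tested between WT5 and polyclonal cells, and 23 were called, 9 higher and 14 lower, where 65.5% of all genes were called, 34.5% higher and 30.9% lower. By list, the calls were 3 of 4 CNNM partners, 9 of 11 other magnesium carriers (3 higher, 6 lower), 0 of 2 tested TRPM channels, 5 of 7 tested kidney magnesium handling genes (4 higher, 1 lower) and 6 of 7 oligosaccharyltransferase partners of Magt1 (1 higher, 5 lower). The 2 TRPM channels, Trpm4 and Trpm5, also had no unadjusted p below 0.05 in limma. The list medians were -0.173, -0.128, 0.109, 0.233 and -0.094 in z-score, in the same order, against 0.0099 over all genes. In subclones 1 to 5, 10, 8, 9, 12 and 5 of the 31 genes tested there were called against WT5, where 26.3%, 26%, 19.5%, 37.3% and 21.9% of all genes were. Against the other subclones 6, 3, 2, 9 and 9 were called, where 4.36%, 5.95%, 4.85%, 18.4% and 14.5% of all genes were. Trpm3 and Trpm4 were the listed TRPM channels tested among the subclones. Trpm3 was not above 0 in every library of WT5 and polyclonal cells, so it could not be tested there. The F test of limma called both (adjusted p = 0.00106 and 0.000449), where 24.6% of all genes were called. Both were called lower in subclone 4 against the other subclones (median log2 difference -0.34). In subclones 1 and 5, 1 of the 2 was called higher, and in subclones 2 and 3 neither was called. Besides Ptp4a3, 2 genes of the 5 lists passed both thresholds between WT5 and polyclonal cells. Nipal1, a magnesium transporter of the NIPA family, stood at 1.02 ± 0.247 TPM in polyclonal cells and 11.6 ± 1.44 in WT5 (adjusted p = 1.81e-06). Umod, which encodes uromodulin of the thick ascending limb, stood at 0.0675 ± 0.0499 and 3.38 ± 0.132 TPM (adjusted p = 9.27e-06), while Slc12a1, the cotransporter that defines that segment, had a mean of at most 0.0025 TPM in both. Umod also differed among the subclones, with means of 2.17, 2.12, 2.73, 4.64 and 11.6 TPM in subclones 1 to 5 (adjusted p = 5.52e-12). Nipal2, a relative of Nipal1, passed both thresholds against WT5 in subclones 1 (0.0250 against 0.285 TPM, adjusted p = 6.32e-05) and 3 (0.0400 against 0.285 TPM, adjusted p = 0.000909). These subclone means lie near 0.01 TPM, the smallest value above 0, so rounding affects the size of both differences. Rpn1, a partner of Magt1 in the oligosaccharyltransferase, lies on chromosome 6 at chr6:88084482-88105304, within 5 Mb of Slc41a3, and had 72.0 ± 2.72 TPM in subclone 4 and means of 105 to 118 TPM in the other subclones.

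**Figure D5:**
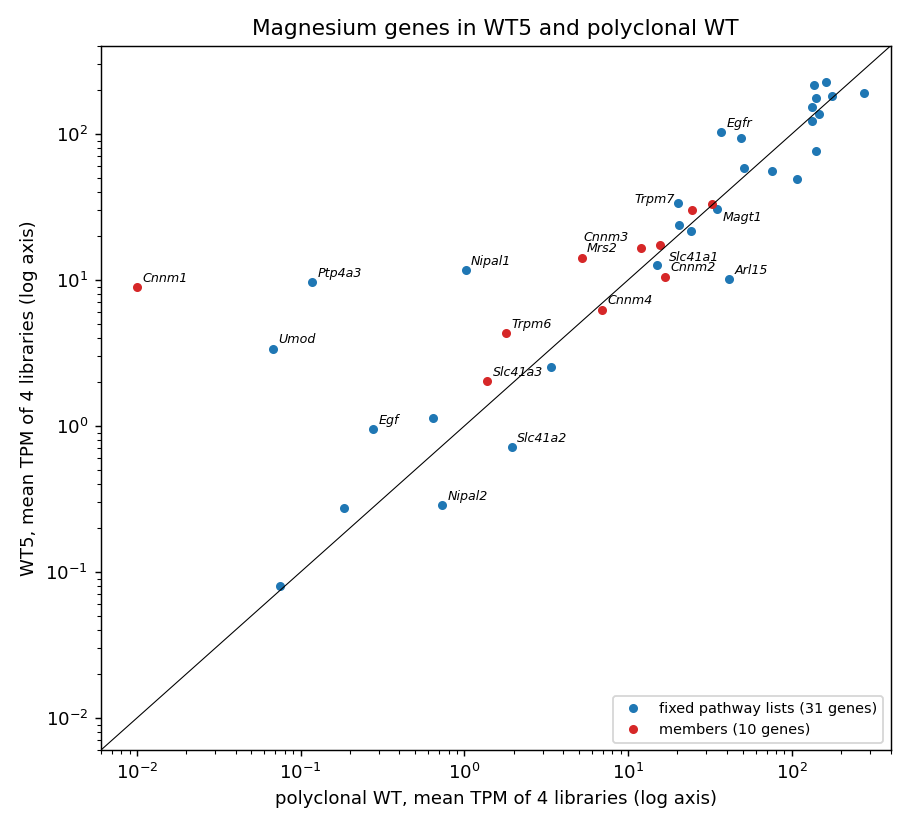
Mean TPM of 4 WT5 libraries against that of 4 polyclonal libraries (both log axes) for the 10 members (red) and the 31 tested genes of the 5 lists (blue), with the line of equal level. Cnnm1 (0.01 against 8.91 TPM), Ptp4a3, Umod and Nipal1 lie farthest above the line, and Arl15 lies below it.

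The genes whose levels ran most like Cnnm1 were found by Pearson correlation of log2(TPM + 0.1). Over all 28 libraries these were Ptprm (0.996), Adcy1 (0.994), Cish (0.994), Ftl1 (0.994) and Chn2 (0.993) among 13988 genes. The points share the step from the polyclonal run to the other libraries. Ptprm, a receptor tyrosine phosphatase, had a mean of 0.0675 TPM in polyclonal cells and 6.55 in WT5, and Ftl1, the ferritin light chain, had 14.7 and 391 TPM, though 90.6% of its 50-base stretches occur in other genes. Over the 20 subclone libraries alone the most similar genes were Mturn (0.949), Plekha8 (0.931) and Snx8 (0.927) among 12574 genes. All 3 were highest in subclone 4, with means of 14.9, 13.9 and 46.8 TPM. Mturn (chr6:54681624-54703851) and Plekha8 (chr6:54595111-54645839) are neighbours in a stretch of chromosome 6, from 50 to 70 Mb, in which 50 of 58 genes were higher in subclone 4 (median log2 difference 0.33). Chn2 (chr6:54039554-54301810), named above, lies in the same stretch. Snx8 lies on chromosome 5.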

How the data were processed

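RNA-seq was run on 28 mIMCD-3 libraries in 7 groups of 4. The authors deposited TPM per Ensembl gene, made from reads called with CASAVA 1.8, aligned with STAR 2.7.3a to GRCm38 (Ensembl annotation) and quantified with RSEM 1.3.1. RSEM divides reads shared between genes by estimate, and TPM holds no depth, so read depth is unknown and no counting interval is given. Values are rounded to 0.01 TPM, which limits genes as low as Cnnm1 in polyclonal cells. All columns were used.

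From these values, log2 TPM of genes above 0 in every library compared was z-scored and tested with limma 3.58.1 in R 4.3.3 (two-sided, Benjamini-Hochberg over all genes tested, adjusted p below 0.01). The study's own unequal-variance test and its added size threshold were run as alternatives, with other pseudocounts, filters, scalings, a replicate block and 1 library left out. The fits were tested on simulated data. Symbols, positions and 50-base stretches came from GENCODE, and promoters from RefSeq GRCm38.p6. The members, lists and tests were chosen with earlier results of these data known. Genes named outside the members were the 4 CNNM partners, genes of the other lists past both thresholds, the genes most correlated with Cnnm1, and its neighbours. Umod, Nipal2, Trpm3, Trpm4 and the cell type markers named among the subclones, Rpn1, Gpld1 and the chromosome 6 genes were added after their values were seen. Replicate numbers did not pair the libraries (0 of 21 pairs of groups had all same-number correlations above 0.1). The study's methods call the libraries biological replicates and a legend on WT5 and polyclonal cells calls them technical, with no separate cultures named in the labels. The methods name z-scores without saying over what, and each library was used here.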

Additional observations from a re-analysis of the deposited data

Results flagged for a closer look

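In 2 of the 70 sets of 4 libraries (10 genes in 7 groups), 1 library stood apart from the other 3 by a gap past the 95% critical value of Dixon's test for 4 samples, where chance alone gives about 1 in 20 such sets. Mrs2 was 15.35 TPM in WT5 replicate 3, above 13.86 TPM in the next library. Trpm6 was 4.81 TPM in WT5 replicate 2, above 4.15 TPM in the next.

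For 4 members the difference from 1 subclone to another was itself tested and passed the threshold in the F test of limma. These were Trpm6 (adjusted p = 1.44e-08), Slc41a3 (adjusted p = 1.64e-05), Cnnm1 (adjusted p = 1.8e-05) and Cnnm2 (adjusted p = 0.00015). The values of each subclone stand in the report. Slc41a3 is the member whose neighbours moved with it: the 56 genes within 5 Mb had a median log2 difference of -0.54 in subclone 4.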

How the results depend on the processing

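The number of members called moved by over 1.5 times in the following settings. Asking for a z-score difference above 1 left 1 member between WT5 and polyclonal cells and 0 in each comparison of subclones, with WT5 or with each other. At an adjusted p below 0.05, 7 members were called in subclone 2 and 6 in subclone 5 against WT5. The unequal-variance test called 2 in subclone 2, log2 TPM without z-scores 2 in subclone 3, and 1 fit over all WT5 and subclone libraries 5 in subclone 5, all against WT5. The cause was not tested. With the replicate number as a block, 2, 1 and 2 members were called in subclones 1, 2 and 3 against WT5. The numbers do not pair the libraries (same-number correlations from -0.328 to 0.153), and in no pair of groups did every library correlate best with its own number. The block gave 6, 5, 2 and 4 members between WT5 and polyclonal cells, in subclones 4 and 5 against WT5, and among the subclones. Leaving out 1 library gave 4 to 5 members between WT5 and polyclonal cells, 4 in each case among the subclones, and 5, 4, 2 to 4, 6 to 8 and 2 to 3 in subclones 1 to 5 against WT5. The count of 2 in subclone 3 came without subclone 3 replicate 3 or WT5 replicate 1, 2 or 4. The mean of Cnnm1 stayed at 0.01 TPM in polyclonal cells, 8.70 to 9.08 in WT5, and 8.12 to 9.10, 7.14 to 7.33, 7.49 to 8.60, 13.1 to 13.5 and 7.22 to 8.30 in subclones 1 to 5. Of the single-gene results, which include differences not called in the main fit, 2282 stayed on their side of the threshold, 91 fell back over it and 27 passed it, and none reversed while called. Differences that were not called could change sign, as those of Slc41a1 and Magt1 between WT5 and polyclonal cells did on log2 TPM without z-scores. With subclone 3 replicate 2 and subclone 5 replicate 1 both left out, a setting added after the data were seen, 4 members were called among the subclones and 4 and 3 in subclones 3 and 5 against WT5. With a pseudocount of 1, 4 of the 5 genes most like Cnnm1 over 28 libraries and all 3 over the subclones were the same.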

Other observations

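The stretches of chromosome 6 that differed in subclone 4 hold Slc41a3 but no other member. From 0 to 20 Mb, 34 of 36 protein-coding genes with a mean of at least 1 TPM were lower in subclone 4 than in the other subclones (median log2 difference -0.55), from 20 to 50 Mb the median over 110 genes was -0.02, from 50 to 70 Mb it was 0.33 over 58 genes, and from 70 to 130 Mb it was -0.55 over 262 genes. In the same stretches the medians of subclones 1, 2, 3 and 5, each against the other 4, lay between -0.11 and 0.17. These stretches were drawn after the values were seen and carry no test.

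Between WT5 and polyclonal cells, the genes around 2 other members also stood away from the median of all genes. The 78 genes within 5 Mb of Trpm7 had a median log2 difference of 0.41, against 0.06 for Trpm7, and the 28 genes within 5 Mb of Magt1 on the X chromosome had a median of -0.50, against -0.22 for Magt1. The genes around Cnnm2 (79 genes, -0.07), Trpm6 (19 genes, 0.07) and Mrs2 (32 genes, 0.03) stood near 0.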
